A study of Mus musculus with 10 samples.

Results

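A set of 10 genes grouped here as brakes of inflammatory signalling was followed in mouse tumors injected with CpG1826 or with PBS. The grouping rests on described roles in limiting NF-κB activation at the ubiquitin step or in shortening the life of cytokine mRNAs. The action of their products was not measured. The members were fixed by symbol: Tnfaip3, Tnip1, Tnip2, Tnip3 and Cyld of the ubiquitin arm, and Zfp36, Zfp36l1, Zc3h12a, Zc3h12c and Rc3h1 of the mRNA-decay arm. All 10 had a probe that names 1 gene only, among 19938 genes measured in this way, and where a gene had 2 such probes (Zc3h12c and Rc3h1) the one with the higher mean over all arrays stood for it.

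The tumors came from MC38, a mouse colon carcinoma line, grown under the skin of C57BL/6 mice, and whole-transcript arrays were hybridised with total RNA of the dissected tumor. CpG1826, a synthetic DNA oligonucleotide whose unmethylated CpG motifs are sensed by TLR9 in endosomes, was given at 50 µg in 50 µL of PBS into tumors of about 40 mm2 and the tumors were taken after 6 h (5 mice, numbered 50, 58, 183, 189 and 595). Control tumors received PBS (5 mice, numbered 26, 29, 482, 592 and 661), and the same volume and time were assumed for them, because the labels describe the CpG1826 injection only. Both groups share strain, tumor line and site, and each array was read as 1 mouse from the number in its title. A whole tumor holds cancer cells, stroma, leukocytes and possibly overlying skin, so more cells of a type and more RNA per cell cannot be told apart in any value below.

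The deposited values are on a log2 scale and have array medians between 6.47 and 6.53. The mean levels of all 10 members lay above 6.87, the median of the genes' mean levels, so a filter on low values at that median removed 0 of them. Of the 10 colon epithelial markers examined, 3 had a mean level at or above that median. These were Cdh1 (7.36 in CpG1826 and 6.74 in PBS tumors), Krt8 (7.05 and 6.93) and Cdx1 (7.05 and 6.98). Among the lower ones, Epcam averaged 5.52 in CpG1826 and 5.19 in PBS tumors. Cdx2 averaged 5.60 in CpG1826 and 5.58 in PBS tumors, and Vil1 4.56 in CpG1826 and 4.68 in PBS tumors. Probes differ in their response and no detection calls were used, so these values do not show whether the defining genes of colon epithelium were expressed.

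NF-κB is switched on by receptors such as TLR9 through chains of ubiquitin that gather kinases on signalling complexes. A20, the product of Tnfaip3, and CYLD remove or edit such chains. The ABIN proteins, encoded by Tnip1, Tnip2 and Tnip3, are grouped with A20, and those of Tnip1 and Tnip2 bind A20 and ubiquitin chains. Whether the mouse product of Tnip3 binds such chains or limits NF-κB was not tested here. A separate arm acts on the transcripts that NF-κB induces. Tristetraprolin (Zfp36) and its relative Zfp36l1 bind AU-rich elements of cytokine mRNAs and recruit deadenylases, regnase-1 (Zc3h12a) and its relative regnase-3 (Zc3h12c) belong to a family of RNases, and roquin-1 (Rc3h1) binds stem-loops and promotes decay. A20 and regnase-1 are also known as NF-κB target genes in macrophages.

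CpG1826 tumors had higher levels of 6 of the 10 brakes and lower levels of 0. Tnip3, Tnfaip3, Tnip1 and Tnip2 rose in the ubiquitin arm, and Zfp36 and Zc3h12a in the decay arm; Cyld, Zfp36l1, Zc3h12c and Rc3h1 did not pass the test (limma across all genes, Benjamini-Hochberg adjusted p under 0.05). Over all genes tested, 4.66% were called, 3.56% as higher and 1.10% as lower. The 5 CpG1826 values lay above all 5 PBS values for the same 6 brakes, against 4.35% of all genes with such a separation upward, 2.42% downward and 6.78% in either direction. The median log2 fold change was 0.55 over the 10 members, 1.20 over the ubiquitin arm and 0.23 over the decay arm, beside -0.02 over all genes. Each of the 6 calls was kept when any 1 mouse was left out. With a test against a minimum change of 1.5-fold (limma treat), 4 were called and Tnip2 and Zc3h12a were not.

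**Figure D1:**
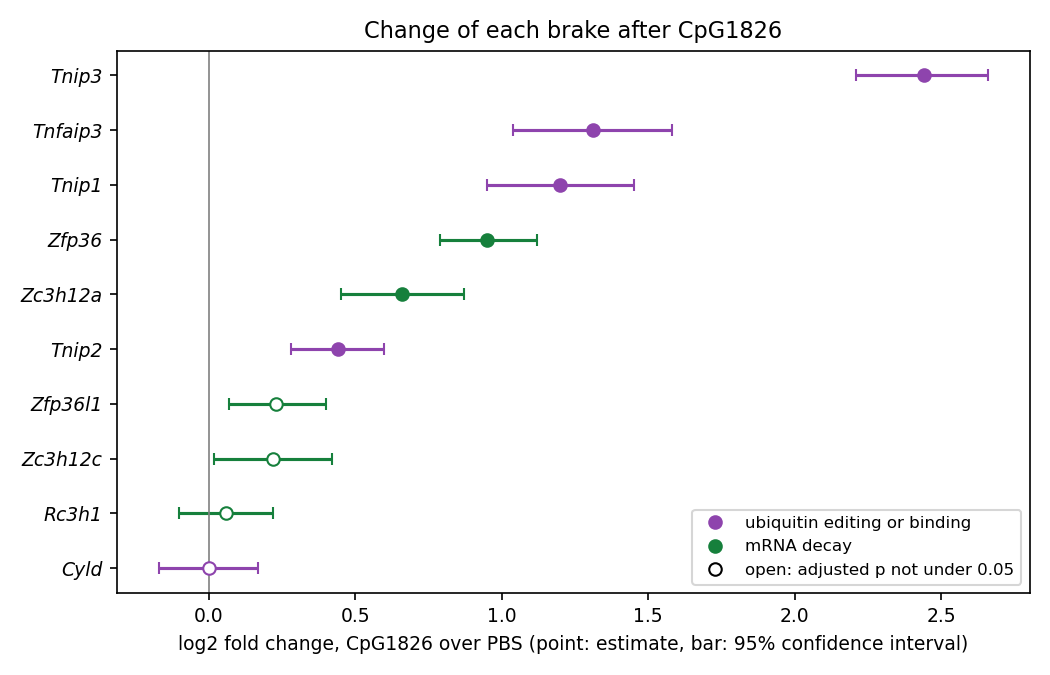
Log2 fold change of each brake, CpG1826 over PBS, on the x axis, with points for the limma estimate and bars for its 95% confidence interval (5 tumors per group); purple marks the ubiquitin arm and green the mRNA-decay arm. Tnip3 stands apart at 2.44, the next 5 filled points run from 1.31 for Tnfaip3 to 0.44 for Tnip2, and the 4 open points, which did not pass, lie at or below 0.23.

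Markers of other cell types moved with the same comparison. The marker counts here and in the next paragraphs stand beside 3.56% of all genes called higher and 1.10% called lower. Among keratinocyte markers 13 of the 17 measured rose and 0 fell, and their mean log2 level ran from 6.79 to 7.44 in CpG1826 and from 5.32 to 5.90 in PBS tumors; Krt1, a keratin of differentiating epidermis, ranged from 8.31 to 9.89 in CpG1826 and from 5.13 to 6.62 in PBS tumors, and Krt5, a keratin of its basal layer, from 8.37 to 9.79 in CpG1826 and from 5.30 to 6.80 in PBS tumors. Krt1 and Krt5 had the largest log2 fold changes of the keratinocyte list (3.06 and 2.95). Krt15, Trp63, Pkp1 and Ivl were not called, with log2 fold changes from 0.17 for Ivl to 0.60 for Pkp1. Of 11 neutrophil markers, 6 rose and 0 fell, with mean levels of 6.12 to 6.53 in CpG1826 and 5.52 to 5.74 in PBS tumors. Only 2 of the 11 had a mean level at or above 6.87, the median of all genes. Ly6g, Mmp9, Camp, Ngp and Ltf were not called, with log2 fold changes from -0.07 for Camp to 0.19 for Mmp9. S100a8 averaged 7.22 in CpG1826 and 5.09 in PBS tumors, and Cxcr2 7.08 in CpG1826 and 5.45 in PBS tumors. Their part in the rise of the 6 brakes was not tested.

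Of 12 macrophage markers, 1 rose and 3 fell, with mean levels of 9.73 to 10.14 in CpG1826 and 9.88 to 10.25 in PBS tumors. Most were not called, among them Adgre1 (0.03), Cd68 (-0.02), C1qa (-0.14), C1qb (0.06) and C1qc (-0.13). Log2 fold changes of the uncalled markers ran from -0.26 for Mertk to 0.32 for Itgam. Csf1r, the M-CSF receptor, fell by 0.46 and Cx3cr1 by 1.21 on the log2 scale. The calls of the remaining 2, Ccr2 (-0.61) and Fcgr1 (0.40), were each lost without most single mice, with limma adjusted p up to 0.127 and 0.0982; Ccr2 kept its call only when CpG1826 mouse 595 was omitted, and Fcgr1 only when CpG1826 mouse 50 or 189 or PBS mouse 592 was. Of 10 colon epithelial markers, 2 rose and 0 fell. Cdh1, which encodes E-cadherin, ranged from 7.17 to 7.63 in CpG1826 and from 6.45 to 7.03 in PBS tumors (log2 fold change 0.63, limma adjusted p = 0.0102), a call kept with any single mouse omitted. The call of Epcam (0.32, limma adjusted p = 0.0485) was kept only when CpG1826 mouse 183 or PBS mouse 26 was omitted, with adjusted p up to 0.126. Of 7 endothelial markers, 0 rose and 1 fell: Tek, the angiopoietin receptor (-0.34, limma adjusted p = 0.0488), whose call was kept only when PBS mouse 29 or 592 was omitted, with adjusted p up to 0.117.

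The marker lists for T and NK cells, B cells, dendritic cells and fibroblasts held 9, 5, 8 and 8 measured genes, of which 0 were called by limma. At an unadjusted limma p under 0.05, 0 were higher in any of them, and 1, 0, 1 and 2 were lower. Over all 19938 genes, 1620 were higher and 1481 lower at that cut. The mean levels of these lists and of the endothelial and colon epithelial ones overlapped between the groups. The list of T and NK cells ran from 6.41 to 7.29 in CpG1826 and from 6.65 to 7.47 in PBS tumors, that of B cells from 4.71 to 5.06 in CpG1826 and from 4.85 to 5.06 in PBS tumors, and that of dendritic cells from 6.10 to 6.37 in CpG1826 and from 6.31 to 6.38 in PBS tumors. Endothelial markers ran from 7.22 to 7.55 in CpG1826 and from 7.32 to 7.49 in PBS tumors, fibroblast markers from 10.12 to 10.58 in CpG1826 and from 10.46 to 10.55 in PBS tumors, and colon epithelial markers from 5.58 to 5.92 in CpG1826 and from 5.52 to 5.77 in PBS tumors.

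The promoters of the 3 brakes with the largest rise are shown as examples of sequences that hold the NF-κB consensus. Because they were picked by rise and motif, they cannot link the motif to the rise, and such a link was not tested. RefSeq (GRCm38.p6) gave a promoter for all 10 members, with 2 starts for Tnfaip3 and Zc3h12c. The 250 bases before each start were searched on both strands for the NF-κB consensus GGGRNNYYCC, the AP-1 motif TGANTCA and the cAMP response element TGACGTCA. R is A or G, Y is C or T and N is any base. Matches are printed on the gene's strand, so a match on the opposite strand appears as its reverse complement. The sequences below run 5′ to 3′ up to the base before the start, with the capitals marking matches to the NF-κB consensus in all of them and, in Tnfaip3 alone, also 1 AP-1 match.
Tnip3, chr6:65590148-65590397, plus strand: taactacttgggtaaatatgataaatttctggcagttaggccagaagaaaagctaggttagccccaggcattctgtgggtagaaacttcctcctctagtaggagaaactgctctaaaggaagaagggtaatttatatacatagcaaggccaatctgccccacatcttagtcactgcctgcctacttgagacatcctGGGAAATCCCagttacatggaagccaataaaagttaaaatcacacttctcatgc
Tnfaip3, chr10:19015411-19015660, minus strand: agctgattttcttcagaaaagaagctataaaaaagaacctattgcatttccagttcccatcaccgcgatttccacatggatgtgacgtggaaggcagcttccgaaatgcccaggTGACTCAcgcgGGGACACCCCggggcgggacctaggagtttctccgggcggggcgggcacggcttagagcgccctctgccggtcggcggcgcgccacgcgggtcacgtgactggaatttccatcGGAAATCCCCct
Tnip1, chr11:54962941-54963190, minus strand: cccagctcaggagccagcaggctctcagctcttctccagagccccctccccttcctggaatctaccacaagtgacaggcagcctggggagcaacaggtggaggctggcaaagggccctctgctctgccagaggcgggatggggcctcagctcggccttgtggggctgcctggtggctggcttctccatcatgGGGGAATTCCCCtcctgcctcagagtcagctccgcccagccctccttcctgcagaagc
In Tnip3 the only match, GGGAAATCCC, begins 54 bases before the start. In Tnip1, 3 overlapping matches lie within 1 stretch that begins 58 bases before the start, with GGGAATTCCC at its centre. Tnfaip3 has 2 matches, GGGACACCCC from base 125 and, on the opposite strand, GGAAATCCCC from base 12 before the start. Its AP-1 match TGACTCA begins at base 136 and overlaps neither. The second start of Tnfaip3 had no match to any of the 3 motifs.

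The NF-κB consensus was found in 5 of the 10 members and at 5 of their 12 starts, while 7.25% of 32851 mouse promoters of the same window hold it. Members with and without a call both had matches. Cyld (GGAAAGTCCC, from base 155) and Zc3h12c (GGAGCGTCCC, from base 236) carry a match on the opposite strand and did not pass. Zfp36, Zc3h12a and Tnip2 rose with no match in this window. AP-1 matches stood in Tnfaip3, Zfp36l1 and Rc3h1 (6.75% of all promoters), and the cAMP response element in 0 members (1.55% of all promoters). These are letter matches in a short window and say nothing of binding in these tumors.

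Tnip3, which encodes ABIN-3, changed most. Its log2 level was 10.34, 10.12, 10.41, 10.28 and 10.33 in the CpG1826 tumors of mice 50, 58, 183, 189 and 595, against 8.23, 7.87, 7.78, 7.84 and 7.58 in the PBS tumors of mice 26, 29, 482, 592 and 661; the other members are given in the same order of mice. The groups were 1.89 log2 units apart at their nearest values, and the CpG1826 tumors lay within a narrower range than the PBS tumors. The log2 fold change was 2.44 ± 0.11 (SE; 95% confidence interval 2.21 to 2.66; limma adjusted p = 2.30e-08), the 15th largest rise of all genes tested.

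Tnfaip3, which encodes A20 itself, had levels of 9.98, 9.43, 9.86, 9.45 and 9.45 in CpG1826 tumors and of 8.24, 8.51, 8.37, 8.44 and 8.04 in PBS tumors. Mice 50 and 183 stood above the other 3 CpG1826 mice, and the groups did not overlap. This corresponds to a 2.48-fold rise (2.06 to 2.99, limma adjusted p = 3.98e-05).

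Tnip1, which encodes ABIN-1, had levels of 8.85, 8.67, 9.26, 8.69 and 9.0 in CpG1826 tumors and of 7.46, 7.89, 7.74, 7.76 and 7.62 in PBS tumors. Again the groups did not overlap, and mouse 183 had the highest value. The rise was 2.30-fold (1.93 to 2.73, limma adjusted p = 4.17e-05).

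Tnip2 encodes ABIN-2, which also binds and stabilises the kinase TPL2. Its levels were 8.45, 8.50, 8.31, 8.37 and 8.46 in CpG1826 tumors, against 8.06, 7.85, 8.12, 8.02 and 7.84 in PBS tumors. The groups were separated by only 0.19 log2 units, and the rise was 1.36-fold (1.22 to 1.52, limma adjusted p = 0.00298), the smallest among the 6 called brakes.

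Cyld, the second deubiquitinase of the arm, had levels of 8.55, 8.72, 8.70, 8.70 and 8.82 in CpG1826 tumors and of 8.64, 8.81, 8.71, 8.84 and 8.50 in PBS tumors. The groups overlapped over most of their range, and the means were 8.70 ± 0.10 and 8.70 ± 0.14 (SD, n = 5 per group). The 95% confidence interval of the log2 fold change ran from -0.17 to 0.17 (limma adjusted p = 0.996), so changes within that interval could not be detected here.

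**Figure D2:**
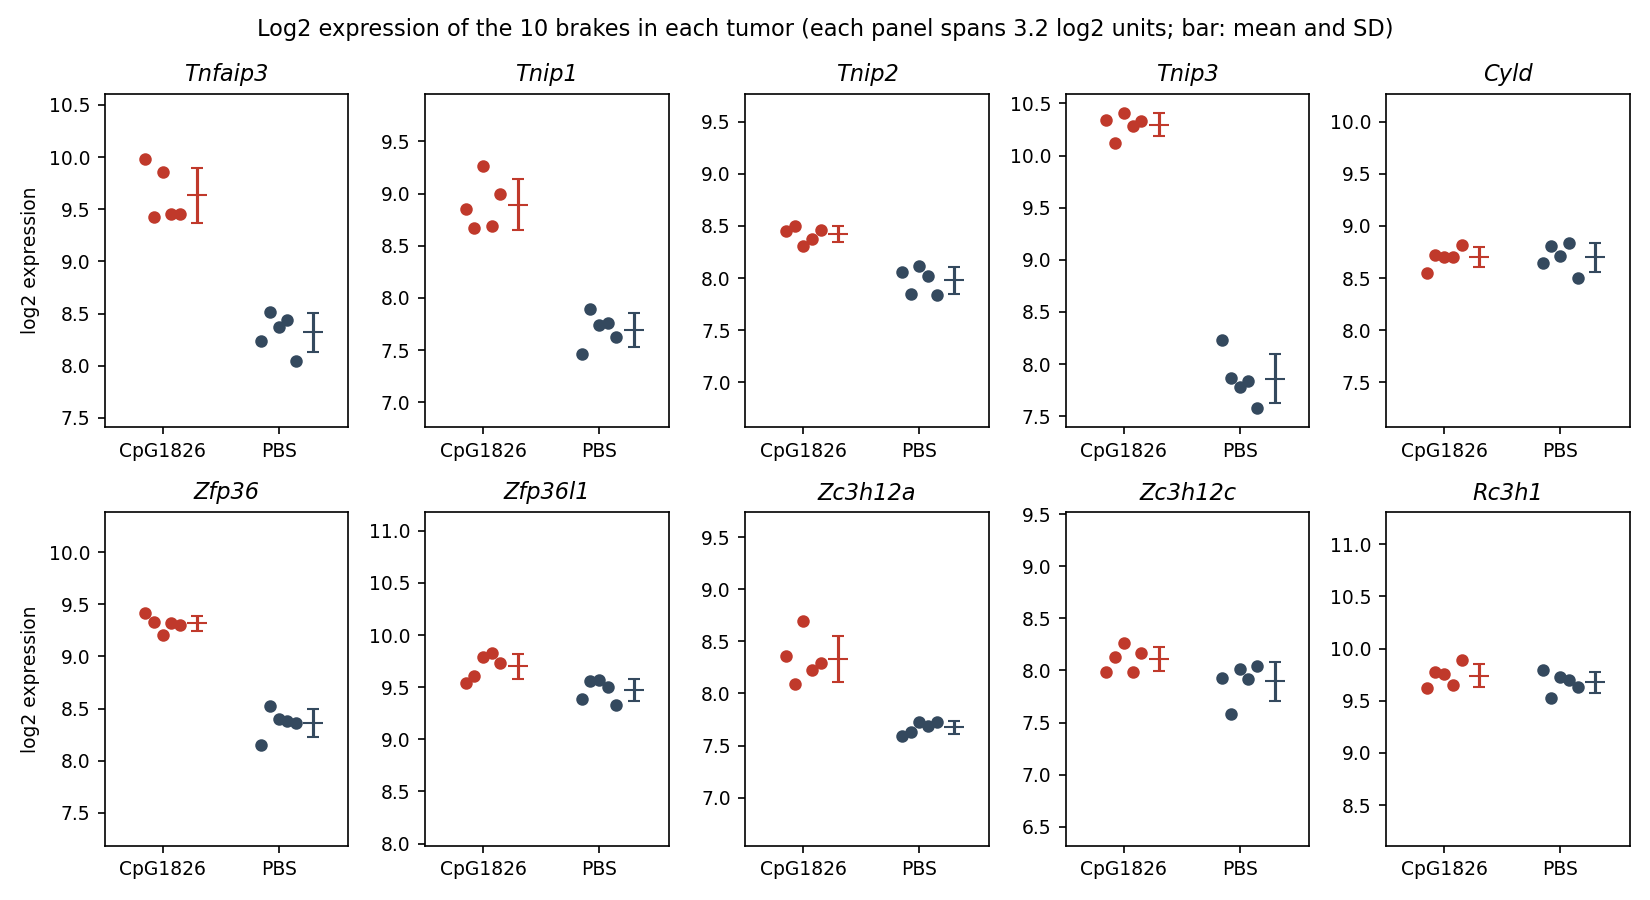
Log2 expression (y axis) of the 10 brakes in each tumor, with 1 point per mouse, CpG1826 tumors at left and PBS tumors at right of each panel, and bars for the mean and SD of 5 tumors. Every panel covers an equal number of log2 units with limits of its own, and the groups are separate for Tnfaip3, Tnip1, Tnip2, Tnip3, Zfp36 and Zc3h12a and overlap for Cyld, Zfp36l1, Zc3h12c and Rc3h1.

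In the decay arm Zfp36, which encodes tristetraprolin, rose most. Its levels were 9.42, 9.33, 9.21, 9.32 and 9.30 in CpG1826 tumors and 8.15, 8.52, 8.40, 8.38 and 8.36 in PBS tumors. The CpG1826 tumors lay close together (SD 0.08, against 0.13 in PBS tumors) and 0.69 log2 units above the highest PBS tumor. The fold change was 1.94 (1.73 to 2.17, limma adjusted p = 6.80e-06).

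Zc3h12a encodes regnase-1, an endonuclease that cleaves stem-loops in the mRNAs of Il6 and Il12b among others. Levels of 8.36, 8.09, 8.69, 8.22 and 8.29 were measured in CpG1826 tumors, against 7.59, 7.63, 7.73, 7.69 and 7.73 in PBS tumors. Here the CpG1826 tumors were the more variable group (SD 0.22, against 0.06 in PBS tumors), and mouse 183 was the highest. The rise was 1.58-fold (1.37 to 1.82, limma adjusted p = 0.00109).

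Zfp36l1, the relative of tristetraprolin, had levels of 9.54, 9.61, 9.79, 9.83 and 9.73 in CpG1826 tumors and of 9.39, 9.56, 9.57, 9.5 and 9.33 in PBS tumors. In CpG1826 tumors 4 of 5 values lay above every PBS value, and that of mouse 50 lay within the PBS range. Its log2 fold change of 0.23 ± 0.08 (SE; 0.07 to 0.40) did not pass over all genes (limma adjusted p = 0.127, and between 0.0798 and 0.265 with any single mouse omitted). An exact permutation test on this gene alone, two-sided, gave p = 0.0238, unadjusted.

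Zc3h12c, which encodes regnase-3, ranged from 7.99 to 8.26 in CpG1826 tumors and from 7.58 to 8.04 in PBS tumors, and mouse 29 gave the low PBS value. The log2 fold change was 0.22 (0.02 to 0.42, limma adjusted p = 0.277), and its second probe gave 0.38 (adjusted p = 0.0736 in a limma fit of all single-gene probes). Without PBS mouse 29 the log2 fold change of the first probe was 0.14 (limma adjusted p = 0.498). Both probes had higher means in CpG1826 tumors without passing.

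Rc3h1 ranged from 9.62 to 9.89 in CpG1826 tumors and from 9.53 to 9.79 in PBS tumors. Its log2 fold change of 0.06 (-0.10 to 0.22, limma adjusted p = 0.759) and that of its second probe, -0.06, lay on either side of 0. Neither probe showed a difference beyond the spread between tumors.

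Relatives within the set changed by unequal amounts. For 6 pairs the difference of the members' log2 levels within each tumor was compared between groups. A positive value means a larger change at the probe of the first gene. Probes can differ in their response, and levels of different probes were not compared. All 6 differences passed (exact permutation test, two-sided, Benjamini-Hochberg over the 6 pairs), and for 5 pairs the groups did not overlap. In 5 against 5 tumors the smallest p of this test is 0.00794, which those 5 pairs reached (adjusted p = 0.00952). The pairs were chosen with earlier results of these data known, so their passing is not independent evidence. Pairs among the ABIN genes share members and are not separate results.

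Among the ABIN genes, the change of Tnip3 exceeded that of Tnip1 by 1.24 log2 units and that of Tnip2 by 2.0, and Tnip1 exceeded Tnip2 by 0.76. The Tnip3 minus Tnip1 difference was 1.40 ± 0.17 in CpG1826 and 0.17 ± 0.35 in PBS tumors (SD, n = 5 per group), with mouse 26 highest among the PBS tumors at 0.78. Between the deubiquitinases, the change of Tnfaip3 exceeded that of Cyld by 1.31 log2 units, from differences of 0.94 ± 0.35 in CpG1826 and -0.38 ± 0.06 in PBS tumors.

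Zfp36 exceeded Zfp36l1 by 0.72 log2 units, the within-tumor difference being -0.39 ± 0.18 in CpG1826 and -1.11 ± 0.11 in PBS tumors (SD, n = 5 per group). Zc3h12a exceeded Zc3h12c by 0.44 log2 units (exact permutation p = 0.0159, adjusted p = 0.0159), with the first probe of Zc3h12c. The second Zc3h12c probe had a log2 fold change of 0.38, nearer to the 0.66 of Zc3h12a, and was not tested alone in this pair. Over the alternatives run, which include the mean of both probes, the difference in change was 0.36 to 0.51. In that last pair the CpG1826 tumors ran from -0.04 to 0.43 and the PBS tumors from -0.34 to 0.05, so the groups overlapped.

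**Figure D3:**
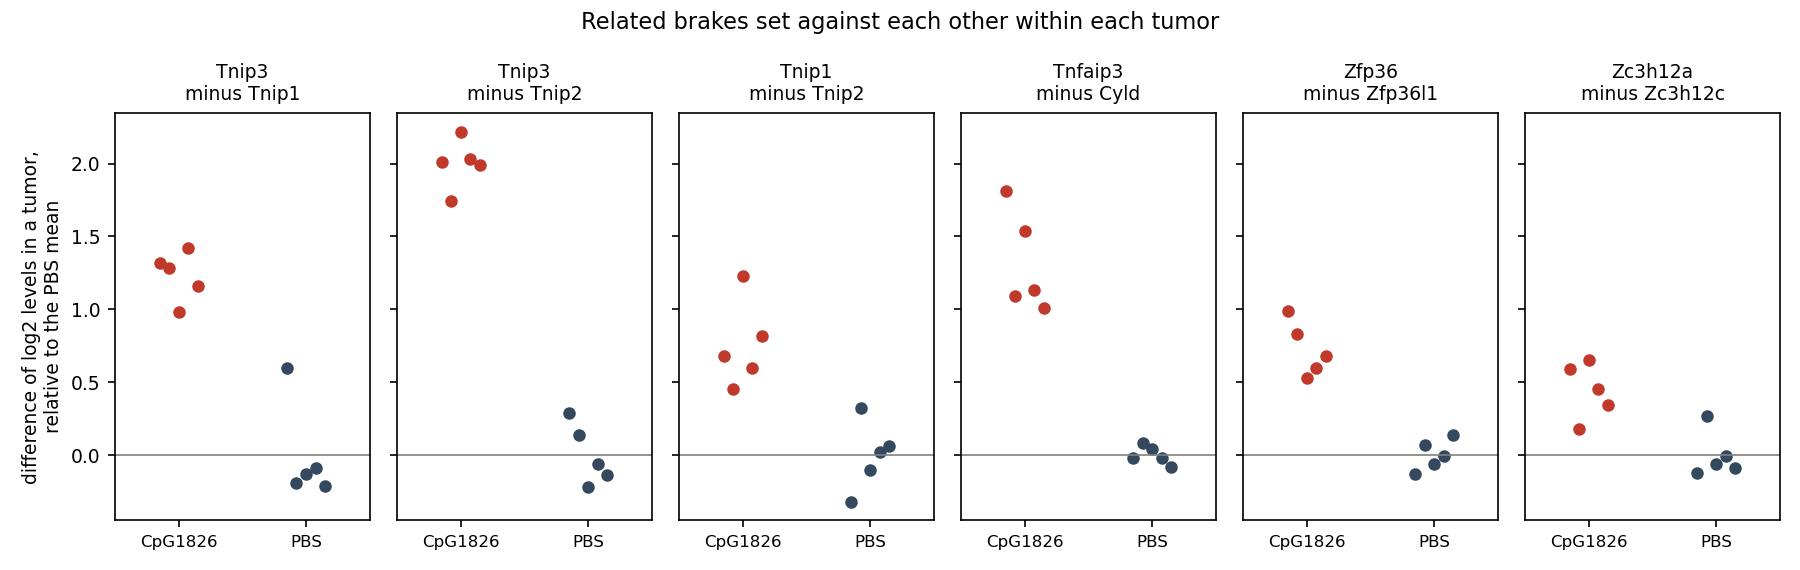
Difference of the log2 levels of 2 related brakes within each tumor (y axis, log2 units, shown relative to the PBS mean of that pair), with 1 point per mouse, CpG1826 tumors at left and PBS tumors at right. The CpG1826 tumors lie above the PBS tumors without overlap in 5 of the 6 pairs, and the widest shift is that of Tnip3 minus Tnip2, at 2.0 log2 units.

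No single mouse set the order of all 6 called brakes. Mouse 183 had the highest CpG1826 value of Tnip1, Tnip3 and Zc3h12a and the lowest of Tnip2 and Zfp36, and mouse 50 had the highest of Tnfaip3 and Zfp36. Mouse 58 was lowest for 4 of the 6 (Tnfaip3, Tnip1, Tnip3 and Zc3h12a) and highest for Tnip2. Among PBS mice, mouse 29 was highest for Tnfaip3, Tnip1 and Zfp36, and mouse 661 lowest for Tnfaip3, Tnip2 and Tnip3.

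Relatives and other deubiquitinases listed outside the set did not pass. The list called paralogs here held 7 measured genes: Zfp36l2, Zc3h12b, Zc3h12d, Rc3h2 and the deubiquitinases Otud7a, Otud7b and Usp13. These deubiquitinases need not be close relatives of a member, and Otud7b also counts among the A20 partners below. Of the 7, 0 were called by limma. At an unadjusted p under 0.05, 1 was higher and 2 were lower, beside 1620 higher and 1481 lower of all 19938 genes. Zfp36l2, another member of the tristetraprolin family, averaged 10.30 ± 0.13 in CpG1826 and 10.61 ± 0.15 in PBS tumors (SD, n = 5 per group), differing by -0.31 on the log2 scale (limma adjusted p = 0.0694). It passed as lower without PBS mouse 26 (-0.37, limma adjusted p = 0.0260). Rc3h2, which encodes roquin-2, differed by 0.17 (limma adjusted p = 0.364).

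Among 17 measured partners of A20 and related ubiquitin enzymes, 3 rose and 0 fell, with a median log2 fold change of 0.09. Over all genes, 3.56% were called higher and 1.10% lower. Tank, an adaptor that binds TRAF proteins and the kinase TBK1, averaged 9.51 ± 0.07 in CpG1826 and 8.89 ± 0.23 in PBS tumors (SD, n = 5 per group), a 1.54-fold rise (1.32 to 1.78, limma adjusted p = 0.00213). Tax1bp1, an adaptor through which A20 reaches its substrates, rose by 0.36 ± 0.07 (SE) on the log2 scale. Rnf31, the catalytic subunit of the linear ubiquitin ligase complex, rose by 0.35 ± 0.08, but omitting CpG1826 mouse 58, 183 or 595, or PBS mouse 29 or 661, ended that call (limma adjusted p up to 0.0584). Optn and Ripk1 were not analysed here.

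Of 28 deadenylase, decapping, exonuclease and adaptor genes, 1 rose and 0 fell (median 0.03), a share close to the 3.56% of all genes called higher. This gene, Btg1, whose protein binds deadenylase subunits, averaged 12.03 ± 0.03 in CpG1826 and 11.67 ± 0.14 in PBS tumors (SD, n = 5 per group; log2 fold change 0.36, limma adjusted p = 0.0102). Without CpG1826 mouse 189 the count was 2.

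Of 8 other genes for proteins that bind AU-rich or stem-loop elements or for kinases that act on tristetraprolin, 2 rose and 0 fell (median 0.06). The share of all genes called higher was 3.56%. Arid5a, which encodes a protein known to protect Il6 mRNA from regnase-1, ranged from 8.05 to 8.09 in CpG1826 and from 7.75 to 7.86 in PBS tumors (log2 fold change 0.25, limma adjusted p = 0.0183, but 0.0554 without PBS mouse 592). Mapkapk2, the kinase MK2 that phosphorylates and restrains tristetraprolin, rose by 0.34, but omitting CpG1826 mouse 58, 183 or 595, or any PBS mouse but 592, ended that call (limma adjusted p up to 0.0803). The count was 1 when any of these mice was left out.

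Transcripts described elsewhere as targets of tristetraprolin, regnase-1 or roquin were higher in large part. Of 25 such targets, 16 rose and 0 fell, with a median log2 fold change of 0.75, beside 3.56% of all genes called higher. Tnf, the first known target of tristetraprolin, averaged 9.38 ± 0.19 in CpG1826 and 8.53 ± 0.13 in PBS tumors (SD, n = 5 per group; limma adjusted p = 0.000118). Il6, a target of regnase-1, averaged 4.97 ± 0.36 in CpG1826 and 3.83 ± 0.15 in PBS tumors (SD, n = 5 per group; limma adjusted p = 0.000367). Both of its means lay below 5.25, the lower quartile of the genes' mean levels, so the filters on low values left Il6 out. Il10 ranged from 7.77 to 8.76 in CpG1826 and from 5.01 to 6.29 in PBS tumors.

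The 4 targets with the largest rise were Lcn2, which encodes a siderophore-binding protein (8.91 to 10.51 in CpG1826, 5.23 to 5.73 in PBS tumors), Il12b, which encodes a subunit shared by IL-12 and IL-23 (8.52 to 9.94 in CpG1826, 5.68 to 6.14 in PBS tumors), the chemokine gene Ccl3 (11.46 to 11.75 in CpG1826, 8.66 to 9.26 in PBS tumors) and Il10. For none of them did the groups overlap. The 9 targets that did not pass were Il2, Csf2, Csf3, Il23a, Nfkbid, Icos, Tnfrsf4, Ctla4 and Tfrc, with log2 fold changes between -0.15 for Il23a and 0.34 for Ctla4. They include Icos, Tnfrsf4 and Ctla4, receptors of T cells. They also include Il2, Csf2, Csf3 and Il23a, whose means in both groups lay below 6.87, the median of the genes' mean levels. The means of Il6, which passed, lay below it too.

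**Figure D4:**
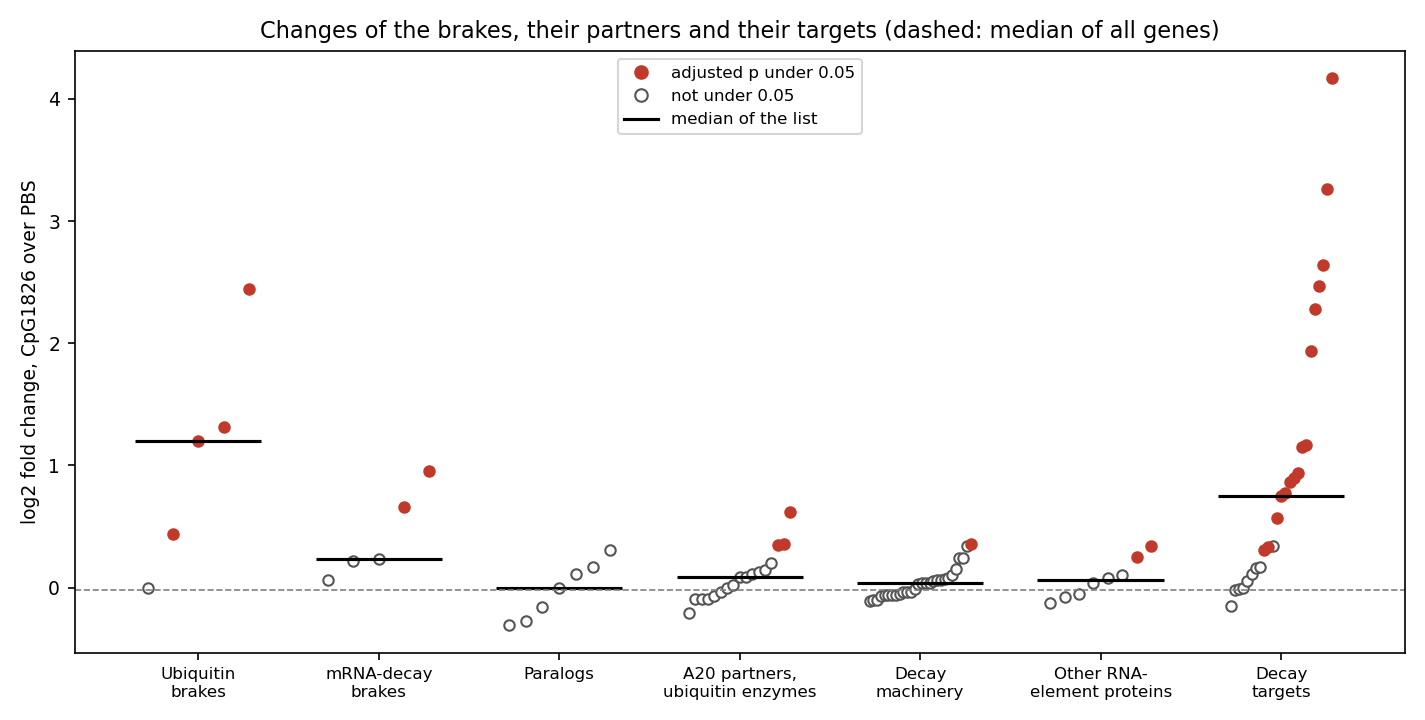
Log2 fold change, CpG1826 over PBS (y axis), of each measured gene in 7 groups, with filled points for limma adjusted p under 0.05, black lines for the group's median and a dashed line for the median of all genes (-0.02). Medians are 1.20 for the ubiquitin brakes, 0.23 for the mRNA-decay brakes and 0.75 for the decay targets, and between 0.00 and 0.09 for the other 4 groups.

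By the rule for likeness, the gene closest to each of 4 brakes was the one with the smallest root mean square difference over the 10 arrays, after each gene's own PBS mean was subtracted. Ccrl2, an atypical receptor that binds chemerin, was closest to Tnfaip3 (0.111 log2 units), followed by the collagenase gene Mmp13 (0.161). Closest to Tnip3 were Il1rn, the interleukin-1 receptor antagonist (0.260), and Ccl3 (0.264). Nfkbia, which encodes the NF-κB inhibitor IκBα, was closest to Zfp36 (0.107), with the elongation factor gene Ell2 next (0.128). For Zc3h12a they were Gem, a small GTPase gene (0.0834), and Ampd3, an AMP deaminase gene (0.105). All of these genes were higher in CpG1826 tumors, and the measure, which includes that difference, is given as a description.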

How the data were processed

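Total RNA of 10 tumors was hybridised to whole-transcript arrays. The deposited table holds 1 log2 value per probe and array; that scale was inferred from their range (2.03 to 14.7). R 2.7.1 and limma appear in the submitters' processing notes, without a stated use. The sources used here give neither the summarization and normalization of probes nor the genome build; if arrays were normalized to each other, a change common to most genes would be lost.

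Of 35512 probes, 21789 name exactly 1 gene in the array's annotation table, 1621 several and 12102 none; each of 19938 genes was represented by its brightest probe on average. The fit was limma 3.58.1 in R 4.3.3 (lmFit, eBayes, two-sided), with Benjamini-Hochberg adjustment over all genes, a threshold of 0.05 and 95% confidence intervals. It was tested on simulated data. Of 100 genes given a change below 1 log2 unit, 69 were recovered, against 100 of 100 given 1 log2 unit. Of 182 calls, 13 were false. Small changes can therefore be missed, and a gene not called is not shown to be unchanged. Exact permutation tests used SciPy 1.17.1. Levels are mean ± SD. The number of arrays limits the precision.

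The members, the gene lists and the tests were chosen with earlier results of these data known. Genes named were the 10 members, up to 4 called genes per list with the largest change (or the 2 with the highest level), Tnf, Il6 and Il10, and 2 genes most like each of 4 members; other list members named were chosen after their values were seen. Cell type marker lists are given mainly by their mean levels. The alternatives tried were: quantile normalization applied again, centring on array medians, filters on low values at the lower quartile and at the median, limma with array weights or with a trended, robust prior, averaging of probes per gene, a fit of every probe, a stricter threshold (adjusted p under 0.01), limma treat with a 1.5-fold minimum, and omission of each mouse.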

Additional observations from a re-analysis of the deposited data

Results flagged for a closer look

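In 120 groups of 5 tumors (54 named genes and 6 gene pairs in both treatments), 8 had 1 tumor far from the others by Dixon's test at the 95% level, where chance flags about 1 in 20 groups. Among the brakes themselves this held for Zc3h12c, whose PBS mouse 29 was at 7.58 while the other 4 PBS tumors lay between 7.92 and 8.04; in the same mouse the Zc3h12a minus Zc3h12c difference was 0.05, against -0.34 to -0.23 in the other PBS tumors. The Tnip3 minus Tnip1 difference was 0.78 in PBS mouse 26, against -0.04 to 0.09 in the other PBS tumors, and without that mouse the difference in change was 1.39 in place of 1.24.

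Outside the brakes, Tank was at 9.39 in CpG1826 mouse 189 (the others 9.52 to 9.55), S100a9 at 8.01 in CpG1826 mouse 50 (7.02 to 7.26) and Fcgr1 at 11.18 in CpG1826 mouse 183 (10.74 to 10.86). PBS mouse 661 had the low value of the 2 T and NK cell markers among the named genes, Nkg7 at 8.15 (the others 9.14 to 9.35) and Cd3g at 7.86 (8.73 to 8.99).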

How the results depend on the processing

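No paired analysis was possible because no mouse number occurs in both groups. The count of brakes called higher was 6 in every fit that left out 1 mouse and in all other alternatives except limma treat (4), and 0 were called lower in any; log2 fold changes over the alternatives were 2.37 to 2.53 for Tnip3, 1.22 to 1.36 for Tnfaip3, 1.11 to 1.26 for Tnip1, 0.41 to 0.48 for Tnip2, 0.89 to 0.99 for Zfp36 and 0.57 to 0.72 for Zc3h12a. Under treat, Tnip2 and Zc3h12a had an adjusted p of 1.0. The 6 pair differences passed under each alternative run for them, which were the repeated quantile normalization, the averaging of probes and the omission of each mouse. The other alternatives were not run for the pairs. The counts around the brakes, for which alternatives were added after the data were seen, were less stable. With treat they were 0 (A20 partners), 0 (decay machinery), 0 (other RNA-element genes), 7 (decay targets) and 3 (neutrophil markers) higher, and for macrophage markers 0 higher and 1 lower. At an adjusted p under 0.01 the decay machinery and the other RNA-element genes had 0 higher, and macrophage markers 0 higher and 1 lower. With the genes below the median left out, which tests fewer genes, 6 keratinocyte and 1 neutrophil marker, 2 decay machinery genes and 2 macrophage markers were higher and 1 paralog lower. Array weights gave 1 A20 partner lower, 1 paralog higher and 1 lower, and 2 macrophage markers higher; the trended prior gave 2 macrophage markers higher and 1 paralog lower, the quantile normalization 1 paralog lower. With all probes tested on their own, 1 RNA-element gene and 0 macrophage markers were higher. Leaving out 1 mouse gave 1 to 2 RNA-element genes, 1 to 2 decay machinery genes and 0 to 1 macrophage markers higher, and 0 to 1 paralogs lower. Over all genes, 710 were called higher (80 with treat) and 220 lower. The lower count was 364 after quantile normalization, 338 without genes under the median, 101 among the chosen probes when all probes were tested, 2 with treat, and, with 1 mouse omitted, 135 (CpG1826 mouse 50), 142 (CpG1826 mouse 183), 144 (PBS mouse 29), 121 (PBS mouse 482) and 137 (PBS mouse 592). The causes of these shifts were not tested.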
